A study of Mus musculus with 9 samples.

Results

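The iPS line was compared with cells at the intermediate stage of reprogramming, 3 days after induction. The comparison used 6 of the 9 arrays of the series: 3 of the iPS line and 3 of the intermediate cells, called TSKM-3D in the labels. It was described across 19937 genes, each represented by the array row that carried its symbol alone and had the highest mean over the 9 arrays. The values are log2 expression values from an Affymetrix mouse whole-transcript array, so a difference of 1 is a 2-fold change. TSKM stands for Tet1, Sox2, Klf4 and c-Myc, the factors named in the iPS label. The TSKM-3D cells were fibroblasts from mice made with TSKM iPS cells. They were expanded in feeder medium and changed at passage 4 to embryonic stem cell medium with doxycycline for 3 days. That medium held 15% serum and 1000 U/ml LIF, the same as for the iPS cells. The iPS cells, at passages 10 to 15, grew on mitomycin C treated mouse embryonic fibroblasts in embryonic stem cell medium with 15% serum and 1000 U/ml LIF. Their feeder cells were removed before collection by plating the suspension for 0.5 h. The third group of the series, fibroblasts at passage 4, served as a reference level and shared in the estimate of the spread. All groups carried the background given as OG2-GFP/Rosa26-M2rtTA, an Oct4 reporter with a doxycycline-responsive activator. Doxycycline is named for the TSKM-3D cells alone, and no age is given for the animals. Whether replicate arrays stand for separate cultures is not said in the labels, so each p-value covers array-to-array spread that may be technical. The iPS samples are titled as 1 line, and a second line was not analysed here.

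Reprogramming turns a somatic cell into one that can form all tissues of the body. Fibroblast genes are turned off early, epithelial junctions form next, and the endogenous circuit around Oct4, Sox2 and Nanog takes over from the introduced factors late. A 3-day culture is a mixture in which only some cells will become pluripotent, whereas an established line holds cells that have completed the change. In such bulk samples, fewer cells of a type and less RNA per cell cannot be told apart.

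The median over all rows of an array was 6.01 to 6.2 for TSKM-3D and 6.2 to 6.23 for the iPS line, and the median gene had an SD of 0.132 and 0.105 on the log2 scale (n = 3 arrays each). Within-group correlations across array rows, which are not independent replicates, were 0.990 to 0.996 for TSKM-3D and 0.995 to 0.996 for the iPS line, against 0.916 to 0.920 between the groups. The labels of the compared arrays matched their markers. All 8 pluripotency markers checked (Pou5f1, Nanog, Sox2, Esrrb, Zfp42, Tdgf1, Dppa5a and Sall4) stood higher on every iPS array than on every TSKM-3D array, and their summed linear level was 28721 to 29151 on iPS arrays and 501 to 584 on TSKM-3D arrays. The 15 measured markers of feeder fibroblasts summed to 15234 to 16856 on iPS arrays and 36986 to 37734 on TSKM-3D arrays, with 9 lower, 1 higher (Dcn, decorin) and 5 not called in the iPS line. Col1a1 still read 11.47 and Vim 11.95 on average in the iPS line, where remaining feeder cells, other cells and the iPS cells themselves cannot be told apart.

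In the iPS line 1292 genes were higher than at TSKM-3D, 6.48% of those tested, and 1709 were lower, 8.57% (at least 2-fold, with a Benjamini-Hochberg adjusted p from limma below 0.05). Together 15.1% of genes were called. Differences beyond 4-fold were seen for 354 higher and 482 lower genes, and beyond 16-fold for 52 higher and 30 lower genes. Genes called higher had a median level of 6.8 at TSKM-3D and 8.72 in the iPS line, and genes called lower went from 8.89 to 7.13. The largest adjusted p among genes past 2-fold was 0.00923, so the fold requirement alone set these counts. The median gene differed by -0.01, and by -0.13 when array medians were set equal, after which 1100 genes were higher and 2002 lower. Changes below are relative to values as deposited. The 3 arrays of each group did not overlap for 49.5% of genes, and all 3 iPS arrays were above all TSKM-3D arrays for 24.2%.

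**Figure D1:**
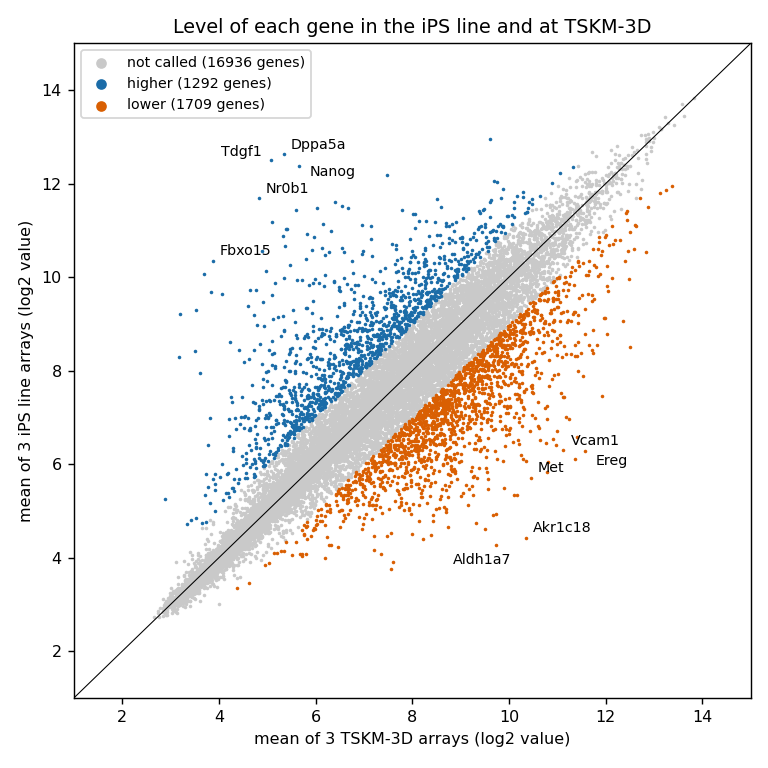
Mean log2 value of each of 19937 genes on the 3 TSKM-3D arrays (x axis) and on the 3 iPS line arrays (y axis); blue points are the 1292 genes called higher, orange points the 1709 called lower, grey points the rest, and the diagonal line marks equal levels. The most changed genes at the upper left (Tdgf1, Dppa5a, Nanog) were dim at TSKM-3D and among the brighter genes in the iPS line, and those at the lower right (Akr1c18, Aldh1a7, Ereg) ran the other way.

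The introduced factors and Oct4 were looked at first. A row cannot tell a transgene's RNA from the endogenous one, and a row whose probes lie outside the introduced coding sequence would not read the transgene at all. Sox2, a partner of Oct4 on pluripotency enhancers, read 6.56, 6.69 and 6.38 on the TSKM-3D arrays and 11.51, 11.52 and 11.54 on the iPS arrays, a log2 difference of 4.98 ± 0.09 SE (limma, Benjamini-Hochberg adjusted p = 8.68e-12). Pou5f1, which encodes Oct4 and was not among the introduced factors, read 7.47, 7.34 and 7.63 and then 12.15, 12.17 and 12.23, a difference of 4.71 ± 0.12. Tet1, a 5-methylcytosine oxidase, read 7.03, 6.98 and 6.92 and then 10.55, 10.58 and 10.52. For these genes each iPS array lay far above every TSKM-3D array. Tet1 stood below its mean fibroblast level of 8.1 at TSKM-3D and above it in the iPS line, so no raised Tet1 reading accompanied the doxycycline named in the TSKM-3D label. Against fibroblasts the TSKM-3D means were 6.54 and 5.15 for Sox2, 8.53 and 8.49 for Klf4 and 11.44 and 9.84 for Myc. Klf4 went from 8.43, 8.58 and 8.59 to 9.88, 10.08 and 9.93, the smallest rise of the group at 1.43 ± 0.09. Myc alone fell, from 11.46, 11.37 and 11.48 to 8.94, 9.04 and 9.07, a difference of -2.42 ± 0.08, and in the iPS line it lay under its fibroblast mean of 9.84.

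Pluripotency genes made up 8 of the 15 largest rises. Of 28 measured members of the list, 26 were higher, 0 lower and 2 not called, with a median difference of 4.02, against -0.01 over all genes. All 14 transcription factors and regulators of the list were higher. Nr0b1, an orphan receptor that partners Oct4, went from 4.58, 4.95 and 4.93 to 11.38, 11.85 and 11.83 (difference 6.87 ± 0.15). Nanog, the homeobox factor that locks in the pluripotent state, went from 5.77, 5.49 and 5.7 to 12.38, 12.44 and 12.32 (difference 6.72 ± 0.1; limma, Benjamini-Hochberg adjusted p = 2.89e-12). At TSKM-3D both genes read close to their fibroblast means of 4.54 for Nr0b1 and 5.76 for Nanog. Factors of the naive state followed, with Tfcp2l1 at a difference of 5.85 ± 0.1, Esrrb at 5.54 ± 0.13, Tcl1 at 3.73, Zfp42 (Rex1) at 3.7, Prdm14 at 2.73, Nr5a2 at 2.73 and Tbx3 at 2.57. Utf1, a chromatin-bound factor of embryonic stem cells, rose by 5.22, and Sall4, a zinc finger partner of Oct4, by 4.65. Of the other Kruppel-like factor genes, Klf2 rose by 2.27 ± 0.14, and Klf5, already at 9.41 at TSKM-3D, by 1.02 ± 0.07. Klf5 was no longer past 2-fold after quantile normalization (0.99), with array medians set equal (0.9) or without the third iPS array.

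The second role in the list, genes restricted to embryonic stem cells, had 12 of 14 members higher. Tdgf1, the Nodal co-receptor Cripto, read 4.99, 5.78 and 4.45 at TSKM-3D and 12.6, 12.43 and 12.48 in the iPS line, the largest rise among the genes named here (7.43 ± 0.24; limma, Benjamini-Hochberg adjusted p = 5.35e-10). Dppa5a, an RNA-binding protein gene used as a marker of the state, read 4.96, 5.86 and 5.2 and then 12.68, 12.57 and 12.66. Fbxo15, an Oct4 and Sox2 target used in the first reprogramming reporters, read 3.8, 3.94 and 3.87 and then 10.43, 10.31 and 10.33. In all 3 genes the iPS arrays lay close together and far above every TSKM-3D array. Their TSKM-3D readings were below the array medians, where the background of the array is unknown, and the size of such rises is uncertain. Dppa2 and Dppa4, a pair of DNA-binding proteins of early embryos, rose by 5.64 and 3.96 (4.75 and 5.29 on other rows). L1td1, an RNA-binding protein of LINE-1 origin, rose by 4.58, Jam2 by 4.66 and the cell cycle regulator Mybl2 by 3.18. Trim28, the co-repressor of KRAB zinc finger proteins, was already bright at 11.05 and rose by 1.18. Dppa3 (Stella) and Eras, both known in embryonic stem cells, were not called, with differences of 0.55 ± 0.13 and 0.82 ± 0.12.

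Promoter sequence was searched in the 250 bases before the gene start for 15562 of the 19937 genes, from RefSeq's promoters for GRCm38.p6. The octamer core ATGCAAA, the letters bound by Oct4, stood on either strand in 3.73% of all these promoters, in 4.39% of those of genes called higher and in 2.64% of those of genes called lower. The SOX core ACAATG was found in 8.58%, 6.64% and 5.5%. Among genes changed at least 16-fold the order of the octamer shares was the reverse, with 3 of 35 promoters (8.57%) of higher genes and 3 of 22 (13.6%) of lower genes, and the SOX core stood in 3 of 35 and 2 of 22. Of 16 pluripotency genes with a promoter in the table, 2 held the octamer core (Nanog and Zfp42) and 3 the SOX core (Nanog, Lin28a and Eras). Sox2, among the factors, held the octamer core too. The stretches are printed 5′ to 3′ on the gene's strand with the matched letters in capitals, because they show how the octamer and SOX letters stand in genes that rose in the iPS line. A match is a description and not a binding site.
Nanog (chr6:122707384-122707457, + strand, rise 6.72): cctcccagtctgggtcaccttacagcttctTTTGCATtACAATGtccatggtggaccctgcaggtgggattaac
Sox2 (chr3:34649866-34649932, + strand, rise 4.98): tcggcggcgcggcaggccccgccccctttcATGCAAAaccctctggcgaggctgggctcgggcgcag
Zfp42 (chr8:43307158-43307224, - strand, rise 3.7): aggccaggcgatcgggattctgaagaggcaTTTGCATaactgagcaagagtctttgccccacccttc
Lin28a (chr4:134018877-134018942, - strand, rise 4.08): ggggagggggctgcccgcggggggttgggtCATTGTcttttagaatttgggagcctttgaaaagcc
In Nanog the octamer word, on the opposite strand, and the SOX word stood 1 base apart, and their letters ran from 75 to 62 bases before the gene start. Both words occurred in 0.54% of all promoters searched and in 0.613% of those of genes called higher.

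Several of the other largest rises were in genes with a known place in early embryos. Lncenc1, a long noncoding RNA of embryonic stem cells, went from 5.18, 5.1 and 5.04 to 11.3, 11.15 and 11.12. Apela, the peptide hormone Elabela, went from 3.42, 3.57 and 3.58 to 9.13, 9.27 and 9.52, and Obox6, an oocyte-type homeobox gene, from 3.89, 3.94 and 3.67 to 9.7, 9.69 and 9.63. In each of these genes no TSKM-3D array came near any iPS array. Calcoco2, an autophagy receptor gene, rose by 5.66 ± 0.13, Dnmt3l by 5.62 ± 0.14, the zinc finger gene Zfp980 by 5.58 ± 0.12 and Trh, the thyrotropin-releasing hormone gene, by 5.45 ± 0.08.

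The largest falls were in genes of varied function. Akr1c18, an aldo-keto reductase, read 10.56, 9.68 and 10.81 at TSKM-3D and 4.69, 4.54 and 4.05 in the iPS line, a difference of -5.92 ± 0.25 (limma, Benjamini-Hochberg adjusted p = 3.42e-09). Ereg, the EGF receptor ligand epiregulin, read 11.59, 11.33 and 11.81 and then 6.34, 6.26 and 6.27. Vcam1, a cell adhesion receptor, read 11.11, 11.07 and 11.2 and then 6.18, 6.43 and 6.28. The TSKM-3D arrays lay several units above the iPS arrays in all 3 genes. The 15 largest falls fell into different histories. Akr1c18, the aldehyde dehydrogenase gene Aldh1a7 and Sostdc1 were back near their fibroblast means in the iPS line (4.43 against 4.72, 4.28 against 4.24 and 5.34 against 5.15). Vcam1, Lurap1l and Prkar2b, in contrast, were also bright in fibroblasts (10.15, 10.52 and 9.03) and lay well under that level in the iPS line (6.3, 6.59 and 5.34). The lysophospholipid transporter gene Mfsd2a fell by 5.24, the caveolar coat gene Cavin2 by 4.96, the matrix adaptor gene Matn2 by 4.75, the hepatocyte growth factor receptor gene Met by 4.74 and the endothelin gene Edn1 by 4.58. Srsy, a member of a multicopy family whose rows can read several copies, differed by -4.88, and Fam110c and Pi15 by -4.8 and -4.58.

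**Figure D2:**
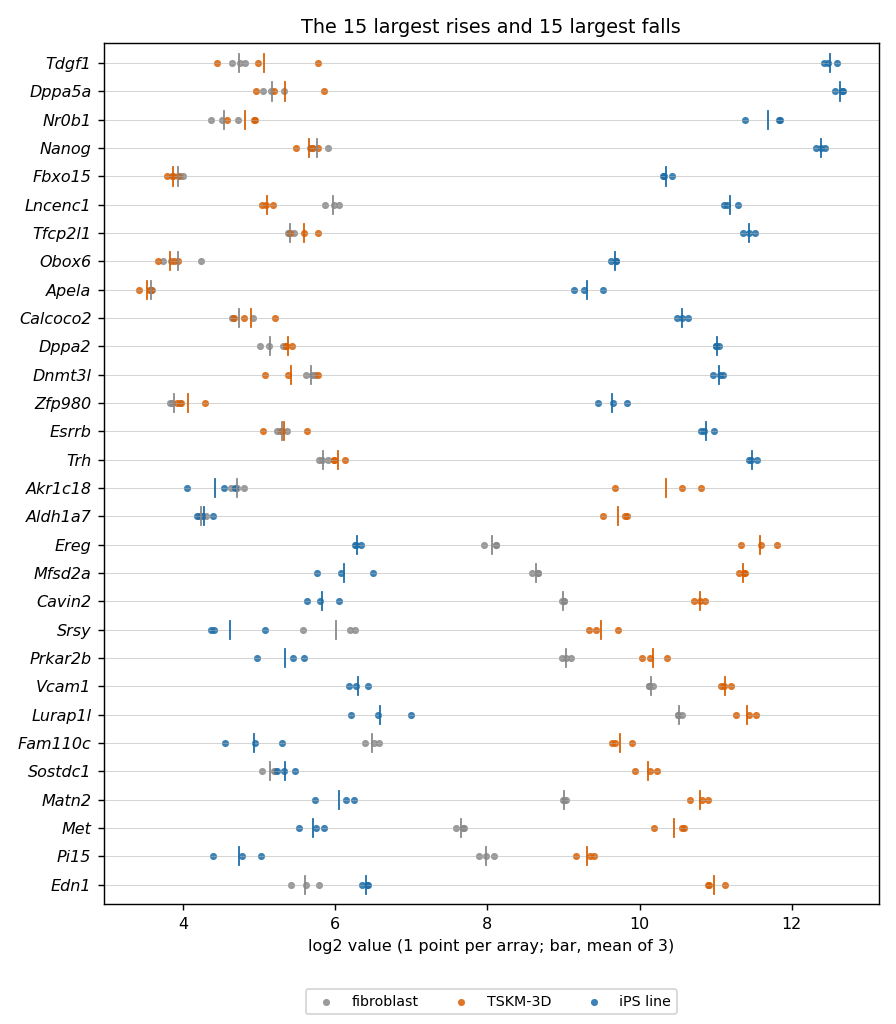
Log2 value on each array (points) and mean of 3 arrays (bars) in fibroblasts (grey), TSKM-3D (orange) and the iPS line (blue) for the 15 largest rises (top) and the 15 largest falls (bottom). For the rises the fibroblast and TSKM-3D points lie together at the left, whereas for the falls the fibroblast points lie near the iPS points in some genes (Akr1c18, Aldh1a7, Sostdc1) and between the groups in others (Matn2, Met, Pi15).

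Signalling genes were taken by pathway. Nodal signalling, in which Tdgf1 serves as co-receptor and Lefty proteins as inhibitors, had 7 of 14 measured genes higher, 3 lower and 4 not called. Among ligands, Nodal went from 5.97, 5.93 and 5.87 to 9.15, 9.28 and 9.27 and Gdf3 rose by 4.64 ± 0.13, and the receptor gene Acvr1b rose by 1.27. The inhibitor gene Lefty2 went from 4.46, 4.94 and 4.5 to 9.79, 9.54 and 9.82, a difference of 5.08 ± 0.13, whereas Lefty1 rose by 1.75. The Nodal effector gene Foxh1 rose by 1.94. Fst, which encodes the activin antagonist follistatin, fell from 11.41, 11.42 and 11.43 to 7.88, 7.99 and 8.1, and the receptor gene Acvr2a fell by 2.35 and Smad3 by 1.22. Ligands, inhibitors and the co-receptor of Nodal thus stood higher in the iPS line, and an activin antagonist and 1 type II receptor lower.

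LIF holds mouse pluripotent cells in self-renewal through a receptor pair, JAK kinases and STAT3. Of 14 genes of this pathway 1 was higher, 5 were lower and 8 were not called. Osmr, the oncostatin M receptor, fell by 2.4 ± 0.12, Jak2 by 2.12, Jak1 by 1.57, Lif by 1.59 and the shared receptor subunit Il6st by 1.51. Lifr, the LIF-specific receptor, was not called (0.66 ± 0.1), nor was Stat3, at -0.98 ± 0.1 and so just short of the 2-fold line, which it passed with array medians set equal and without the second TSKM-3D array or the second or the third iPS array. The feedback gene Socs3 differed by 0.01 ± 0.09. Gbx2, a STAT3 target, rose by 1.38. After array medians were set equal 7 genes of the list were lower.

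Of 28 FGF and ERK genes 4 were higher and 8 lower. Among 10 ligands Fgf4, the autocrine ligand of pluripotent cells, went from 6.49, 6.86 and 6.42 to 10.04, 9.97 and 9.96, and Fgf7, a mesenchymal ligand, from 9.95, 9.9 and 9.95 to 6.7, 6.55 and 6.97. None of 5 receptors rose, and Fgfr2 and Fgfrl1 fell by 1.66 and 1.87. ERK targets split. The ETS factor genes Etv5 and Etv4 rose by 2.45 ± 0.07 and 1.72 ± 0.14, while the ERK phosphatase genes Dusp6 and Dusp5 fell by 2.11 ± 0.09 and 2.03 ± 0.08, and Phlda1 fell by 2.56. The feedback genes Spry2 and Spry4 differed by 0.44 and -0.41, under the 2-fold line. In the EGF family 1 of 10 genes rose and 4 fell. Erbb3 rose by 2.82 ± 0.16, and Egfr, its ligand genes Ereg and Hbegf, and Erbb4 fell by 1.9, 5.29, 2.11 and 1.29.

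WNT genes were mostly not called, with 2 of 27 higher, 5 lower and 20 not called. The noncanonical ligand Wnt5a fell by 2.69 ± 0.1, and the secreted antagonist genes Sfrp2, Frzb and Dkk2 by 1.75, 1.69 and 1.31. Tcf7l1, the repressor TCF of embryonic stem cells, rose by 1.17 and the target gene Cdx1 by 1.21, and Tcf7l2, a relative of Tcf7l1, fell by 1.2. In BMP signalling 1 of 16 genes rose and 5 fell. The ligand Bmp4 rose by 1.93 ± 0.09, and the ID genes, direct targets of BMP, were all lower, by 2.22 for Id1, 1.86 for Id3, 1.42 for Id4 and 1.26 for Id2, as was the BMP effector Smad1 by 1.5. Id1 stood at 8.76 in fibroblasts, 10.21 at TSKM-3D and 7.99 in the iPS line. TGF-beta genes had 0 of 17 higher and 11 lower, with a median of -1.22. The ligand Tgfb3 fell from 9.99, 9.95 and 10.08 to 6.61, 6.63 and 6.67, and the receptor gene Tgfbr2 from 9.52, 9.55 and 9.53 to 6.91, 6.91 and 6.99, while the target Thbs1 fell by 1.39 and the feedback repressor Skil by 1.46.

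Epithelial and mesenchymal programmes moved in opposite directions. Of 33 epithelial genes 16 were higher, 3 lower and 14 not called, and of 33 mesenchymal and fibroblast genes 1 was higher, 22 lower and 10 not called. Cdh1, E-cadherin, read 6.04, 5.95 and 5.92 at TSKM-3D and 10.76, 10.92 and 10.89 in the iPS line (difference 4.89 ± 0.1; limma, Benjamini-Hochberg adjusted p = 2.34e-11). Cdh2, N-cadherin, read 10.77, 10.68 and 10.92 and then 7.65, 7.01 and 7.05 (difference -3.55 ± 0.15; limma, Benjamini-Hochberg adjusted p = 3.46e-09). In both genes the groups were apart on every array. Other junction genes that rose were Epcam (4.54), the claudin genes Cldn4 (3.3) and Cldn6 (2.49), the desmoglein gene Dsg2 (2.91) and F11r (2.52). Tjp1, the tight junction scaffold ZO-1, was at 9.29 and 9.34, a difference of 0.05 ± 0.07. The simple keratin genes Krt8 and Krt18 rose by 2.4 and 2.35, whereas Krt19 fell by 2.54 from 10.27. Perp and Pkp2 were the other falls (-1.08 and -1.35), Perp losing its call without the third TSKM-3D array.

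Among mesenchymal transcription factors 10 of 16 fell and 0 rose. Tbx15 fell by 3.53, Meox2 by 3.52, Twist1 by 3.08, Runx1 by 2.61, Zeb2 by 2.46 and Zeb1 by 1.7. Snai1 did not pass the 2-fold line (-0.63 ± 0.11), having stood at 10.59 in fibroblasts and 7.9 at TSKM-3D. Surface and structural genes that fell included the cadherin gene Cdh11 (-3.11), Pdgfra (-2.84), the collagen receptor gene Ddr2 (-2.72), Thy1 (-1.7) and vimentin, Vim (-1.41). Nt5e, the ectonucleotidase CD73, was the gene of the list that rose (1.45). Markers used to stage reprogramming by surface staining split the same arrays, with Alpl (alkaline phosphatase) higher by 3.96 ± 0.2, Pecam1 by 3.48, Kit by 3.96 and Icam1 by 1.24, and Cd44 lower by 1.91, Cd24a by 1.56 and Thy1 as above, of 14 measured.

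Matrix and cytoskeletal genes were mainly lower. Of 51 matrix genes 26 fell and 2 rose, and 13 of 18 collagen genes fell and 0 rose. The basement membrane collagens Col4a5 and Col4a6 fell by 3.25 ± 0.1 and 2.96 ± 0.09 from levels reached at TSKM-3D (10.02 and 8.86, against 7.29 and 5.68 in fibroblasts). Col3a1 fell by 2.3 and Col1a2 by 1.56, and Col1a1 was not called (-0.85 ± 0.12). Fbn2, a fibrillin of developing elastic fibres, read 10.83, 10.69 and 10.77 and then 6.5, 6.36 and 6.49. Dcn, decorin, ran the other way from 7.06, 7.0 and 7.16 to 8.7, 8.58 and 8.3, still under its fibroblast mean of 11.51. Among glycoproteins Lama5, a laminin chain that supports pluripotent cells, rose by 2.18 ± 0.13 and Lama4, a mesenchymal chain, fell by 3.29 ± 0.08. The share of feeder cells in the iPS samples was not measured, and its part in these levels was not tested.

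Of 18 matrix protease and inhibitor genes 11 fell and 1 rose (Mmp13, 1.08, not with array medians set equal), the falls led by Adamts5 (-3.64), Adamts1 (-3.55), Mmp2 (-2.29) and the urokinase gene Plau (-2.11). Integrins had 3 of 16 higher and 6 lower. The collagen and VCAM1 receptor chains Itga1 and Itga4 fell by 2.35 and 3.69 and Itgb8 by 3.27, and the laminin receptor chains Itga3 and Itga6 rose by 1.35 and 1.11, Itga6 not with array medians set equal. Itgb7 rose by 1.14, but not without the third TSKM-3D array. Actin contractile and YAP-linked genes had 18 of 29 lower and 1 higher, and 11 of the 16 structural members fell, among them Myl9 (-2.25), Cnn2 (-2.24), Tpm1 (-2.05) and Tagln (-1.82). Ccn3, a matricellular gene, fell by 4.3 ± 0.11, while Yap1 itself differed by -0.18 ± 0.09. Tead4, the TEAD factor of the trophoblast lineage, rose by 1.75. S100 proteins and annexins, calcium-binding genes of migratory cells, had 11 of 20 lower, with S100a4 at -2.96, S100a6 at -2.87, Anxa3 at -2.22 and Anxa2 at -2.15, and Anxa11 higher (1.26).

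**Figure D3:**
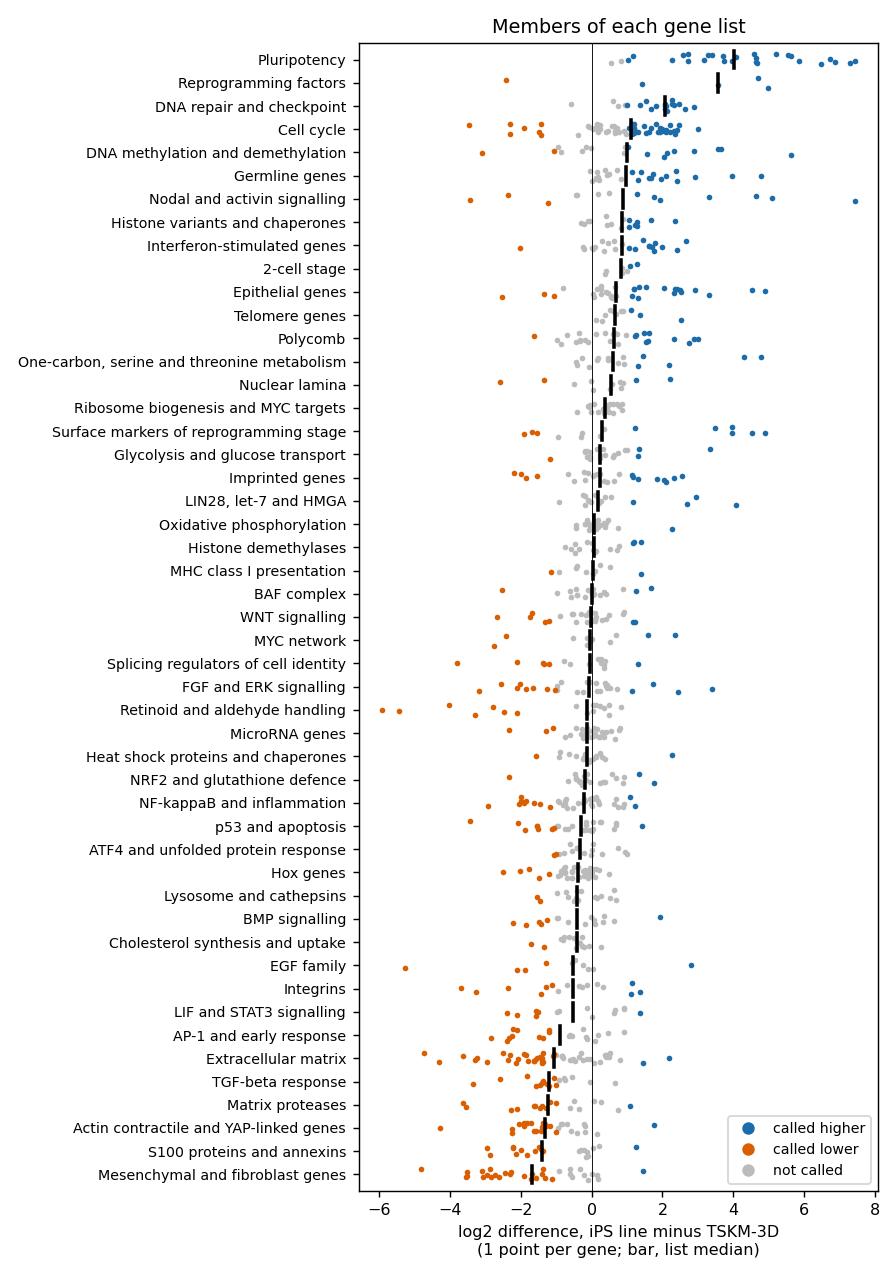
Log2 difference, iPS line minus TSKM-3D, of each measured member (points) of 49 gene lists, ordered by list median (black bars); blue points were called higher, orange points lower and grey points not called. Pluripotency (median 4.02) and DNA repair (median 2.07) lie to the right, and mesenchymal (median -1.7) and S100 and annexin genes (median -1.41) to the left.

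Genes of DNA methylation rose in part. Among 9 methyltransferase and maintenance genes 5 were higher and 0 lower. Dnmt3l, the cofactor of the de novo methyltransferases, read 5.38, 5.78 and 5.08 at TSKM-3D and 11.09, 11.06 and 10.97 in the iPS line (difference 5.62 ± 0.14; limma, Benjamini-Hochberg adjusted p = 8.21e-11). The de novo enzyme gene Dnmt3b rose by 2.88 ± 0.15, and Zfp57, which guards methylation at imprints, by 3.65. Uhrf1, the maintenance cofactor, and the remodeller Hells rose by 2.14 and 2.32, but Dnmt1 and Dnmt3a did not reach 2-fold (0.9 ± 0.07 and 0.94 ± 0.08). On the side of demethylation Tet1 and Tet2 rose by 3.57 and 2.05. Tet3 differed by -1.07 on the row used but by -0.20 on its other row, and it lost its call without the first iPS array. Gadd45g, a stress-induced gene, fell from 11.32, 11.42 and 11.48 to 8.5, 8.33 and 8.14.

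Polycomb complexes silence developmental genes through histone H3 and H2A marks. Of 12 PRC2 genes 5 rose and 0 fell, and of 16 PRC1 genes 5 rose and 1 fell. The PRC2 accessory genes Jarid2 and Mtf2 went from 8.01, 7.97 and 8.2 to 10.99, 11.12 and 11.05 and from 8.63, 8.47 and 8.71 to 11.55, 11.52 and 11.45. Core subunit genes rose less, Suz12 by 1.61 and Eed by 1.6 (0.27 on its other row), and the catalytic subunit gene Ezh2 was not called (0.72 ± 0.09). In PRC1, Phc1 rose by 2.76, Cbx7 by 2.33, Kdm2b by 1.53, Pcgf6 by 1.26 and Pcgf2 by 1.23, while Bmi1 (Pcgf4) fell from 8.66, 8.74 and 8.75 to 7.28, 6.99 and 7.03. Bmi1 and its paralogs Pcgf2 and Pcgf6 thus moved in opposite directions.

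Other chromatin genes changed in fewer members. Of 16 histone demethylase genes 3 rose (Kdm3b by 1.39, Kdm5b by 1.19 and Kdm3a by 1.16, the last not without the second TSKM-3D array) and 0 fell. In the BAF remodelling complex 2 of 21 rose and 1 fell. Demethylase genes were called in 18.8% of members and BAF genes in 14.3%, against 15.1% over all genes. Nothing particular to these 2 lists is read from the counts. Actl6a, the actin-like subunit of stem cell BAF, rose by 1.68 ± 0.09 and Smarcd1 by 1.26, and the ATPase gene Smarca2 (BRM) fell from 8.23, 8.19 and 8.54 to 5.93, 5.71 and 5.68, while its alternative Smarca4 (BRG1) stood at 10.09 and 10.1. Histone variant and chaperone genes had 7 of 16 higher and 0 lower (5 with array medians set equal), led by the replication-coupled chaperone subunit Chaf1b (2.37) and H2ax (1.68). In the nuclear lamina the A-type lamin gene Lmna fell from 11.13, 11.1 and 11.15 to 8.22, 8.77 and 8.58, the B-type gene Lmnb1 rose by 1.27 and the pore protein gene Nup210 by 2.21. Syne1, a nuclear envelope linker gene, differed by -1.36 on the row used and -0.07 on its other row.

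**Figure D4:**
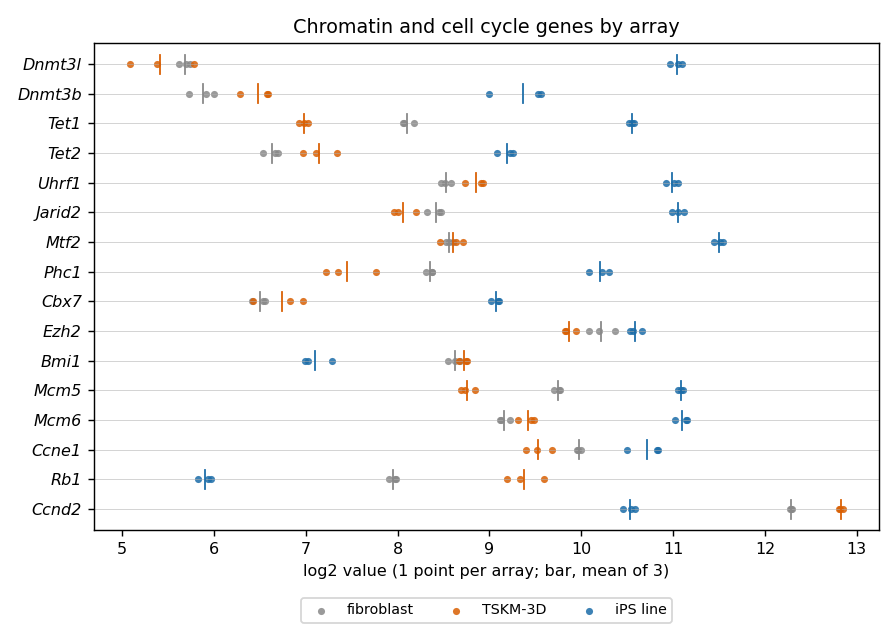
Log2 value on each array (points) and mean of 3 arrays (bars) in fibroblasts (grey), TSKM-3D (orange) and the iPS line (blue) for 16 chromatin and cell cycle genes. In Dnmt3l the iPS arrays stand 5.62 units above TSKM-3D; Bmi1, Rb1 and Ccnd2 are the genes shown in which the iPS arrays lie lowest.

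Most genes of DNA replication and repair were higher. Of 28 replication genes 22 were higher, 0 lower and 6 not called, with a median of 1.66, and of 20 repair and checkpoint genes 16 were higher, 0 lower and 4 not called, with a median of 2.07. Orc1, the largest subunit of the origin recognition complex, read 6.04, 5.69 and 6.11 and then 9.07, 8.89 and 8.87. The licensing genes Cdt1 and Cdc6 rose by 2.47 ± 0.07 and 2.22 ± 0.08. All 6 subunits of the MCM2-7 helicase rose, by 2.32 for Mcm5, 2.21 for Mcm3, 2.03 for Mcm2, 1.88 for Mcm4, 1.69 for Mcm6 and 1.31 for Mcm7. The polymerase clamp gene Pcna, bright at 11.4, and the ribonucleotide reductase gene Rrm1 did not pass 2-fold (0.67 and -0.38). On its other row, Pcna differed by 1.1. In repair, Fanci rose by 2.9, Brca2 by 2.65, Brca1 by 2.47, Msh6 by 2.12, Chek1 by 2.07 and Parp1 by 1.36, and the apical kinase genes Atm and Atr were not called (0.75 ± 0.12 and 0.59 ± 0.13).

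The E2F letters TTGGCGC, searched on both strands, were found in 2.78% of all promoters, in 4.9% of those of genes called higher, in 2.42% of those of genes called lower and in 3 of 23 replication genes with a promoter in the table. These were Mcm5, Mcm6 and Pola1, of which Pola1 was not called (0.45). The helicase promoters are printed in the same way because each held the word more than once.
Mcm5 (chr8:75109315-75109396, + strand, rise 2.32): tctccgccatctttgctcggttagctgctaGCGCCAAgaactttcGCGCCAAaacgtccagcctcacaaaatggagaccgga
Mcm6 (chr1:128359715-128359844, - strand, rise 1.69): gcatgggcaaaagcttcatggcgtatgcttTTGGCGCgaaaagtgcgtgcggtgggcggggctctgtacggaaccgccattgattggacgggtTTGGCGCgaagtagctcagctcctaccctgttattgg

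Cell cycle control genes moved both ways. Among 14 cyclins and kinases 5 rose and 2 fell, with the phosphatase gene Cdc25a higher by 1.98, Cdk2 by 1.82 and Ccne1 (cyclin E1) by 1.19, and the D-type cyclin genes Ccnd2 and Ccnd1 lower by 2.3 and 1.5. Ccnd3, the third of the family, rose by 1.14. Among 14 inhibitors and retinoblastoma family genes 2 rose (the E2F genes E2f1 and E2f8, 1.14 and 1.14) and 5 fell. Rb1, the retinoblastoma gene, read 9.34, 9.19 and 9.59 and then 5.82, 5.93 and 5.97 (difference -3.47 ± 0.1; limma, Benjamini-Hochberg adjusted p = 2.36e-10). Every iPS array also lay under the fibroblast mean for Rb1, 7.95. The CDK4 inhibitor genes Cdkn2b, Cdkn2a and Cdkn2c fell by 2.3, 1.92 and 1.44 and Rbl2, a relative of Rb1, by 1.43, and Cdkn1b (p27) differed by -0.1 ± 0.11. Of 15 p53 network genes 0 rose and 7 fell, among them the death receptor gene Fas, from 8.6, 8.17 and 8.72 to 5.33, 4.72 and 5.09, Btg2 by 2.08, Phlda3 by 1.88, Plk2 by 1.54 and Mdm2 by 1.53. BCL2 family genes had 1 of 12 higher (Bid, 1.43) and 1 lower (Bcl2, -1.11).

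In the MYC network Mycn rose from 6.68, 6.77 and 6.28 to 9.14, 8.76 and 8.91 while Myc fell, and the partner genes Max and Mxi1 differed by -0.14 and -0.04. Mga, a MAX partner that represses germ cell genes, rose by 1.58, and Mxd4, a MYC antagonist, fell by 2.75. None of 24 ribosome biogenesis and MYC target genes was called in either direction, with a median of 0.38 and values from -0.4 (Rrs1) to 0.85 (Rrp12). The median was 0.26 with array medians set equal. All iPS arrays lay above all TSKM-3D arrays in 17 of these genes and below them in 1. Over all genes 24.2% had all iPS arrays above, so most of the list stood higher by less than 2-fold.

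Metabolic genes were called in part of each list, with changes of differing size. The share called was 19% for glycolysis, 4.17% for respiratory subunits, 13.3% for cholesterol and 12.5% for NRF2 and glutathione genes. Over all genes it was 15.1%, so no general metabolic change is read from these counts. For one-carbon genes the share was 31.2%, and for retinoid and aldehyde genes 41.2%. Slc2a3, a high-affinity glucose transporter, read 9.6, 9.59 and 9.66 and then 13, 12.97 and 12.92, Hk2 and Aldoc rose by 1.34 and 1.3, and Eno3 fell by 1.18, but 17 of 21 glycolysis genes were not called. Of 24 nuclear-encoded respiratory subunits the isoform gene Cox7a1 alone was called (2.27 ± 0.1). One-carbon and glycine metabolism had 5 of 16 genes higher and 0 lower. Amt, the aminomethyltransferase of the glycine cleavage system, read 5.6, 5.56 and 5.26 and then 10.15, 10.27 and 10.38, and Gldc, the decarboxylase of the same system, read 8.12, 8.12 and 8.12 and then 10.25, 10.4 and 10.31. Gcsh, its carrier protein, was not called (0.47 ± 0.11). The amino acid transporter gene Slc7a3 rose by 4.3, Shmt1 by 1.44 and Gcat, of threonine breakdown, by 1.31. Cholesterol genes had 0 of 15 higher and 2 lower, Cyp51 by 1.72 and Idi1 by 1.36. Among NRF2 targets and glutathione genes Gpx2 and Nqo1 rose (1.75 and 1.34), Gpx8 fell (-2.33) and 21 of 24 were not called. Retinoid and aldehyde genes had 0 of 17 higher and 7 lower. Besides Akr1c18 and Aldh1a7, Aldh1a1 fell from 9.24, 8.84 and 9.39 to 5.12, 5.13 and 5.1, the retinoic acid carrier gene Crabp1 by 3.28 and the retinol dehydrogenase gene Rdh10 by 2.78.

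Part of the early response factors were lower in the iPS line. Of 20 AP-1 and early response genes 10 fell and 0 rose, with a median of -0.91. Fosl2 read 10.32, 10.4 and 10.72 and then 7.7, 7.55 and 7.61, Jun fell by 2.12 ± 0.08 and Fosl1 by 2.26 ± 0.12, whereas Fos was not called (0.9 ± 0.12) and Jund differed by 0.16. Egr2, Nr4a1 and Maff, at 10.26, 12.02 and 9.27 at TSKM-3D, stood near their fibroblast means in the iPS line (7.93 against 7.85, 9.8 against 9.67 and 6.87 against 7.18). The AP-1 letters TGACTCA were present in 3.01% of promoters of genes called lower and in 3.93% of all promoters. Among genes lower by at least 16-fold they stood in 3 of 22 promoters (13.6%), those of Adh7, Aldh1a1 and Met. The octamer core and the E-box letters CACGTG, also searched, each stood in 3 of these 22 as well. Nothing particular to AP-1 is read from this share. NF-kappaB subunits, feedback genes and cytokines had 9 of 38 lower and 2 higher, with Icam1 and Cxcl16 higher (1.24 and 1.09, the latter not with array medians set equal), the feedback inhibitor Tnfaip3 at -2.01 and the chemokine genes Cxcl5, Ccl7 and Ccl2 at -2.93, -2.04 and -1.92.

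Interferon-stimulated genes ran the other way. Of 23 measured, 11 were higher, 1 lower and 11 not called, and the list median on single arrays was 6.17, 6.34 and 6.20 at TSKM-3D, 7.87, 7.81 and 7.64 in the iPS line, and 7.24, 7.42 and 7.21 in fibroblasts. Usp18, the ISG15 protease, read 6.11, 6.09 and 6.2 and then 8.89, 8.85 and 8.68. Oas1a rose by 2.41 ± 0.11, and the parts of the ISGF3 complex Stat2 and Irf9 by 1.99 ± 0.08 and 1.7 ± 0.08. The TSKM-3D arrays read lower than the fibroblast arrays for these last genes as well, with fibroblast means of 8.49 for Stat2 and 8.23 for Irf9 against 6.7 and 6.77. Effectors were not uniform, since Mx1 and Ifitm3 differed by 0 and -0.22 and Ifit2 fell by 2.04. MHC class I genes had 1 of 11 higher (Tapbp, 1.38) and 1 lower (Erap1, -1.16), and B2m differed by -0.4. Macrophage markers, which can carry interferon genes, had 2 of 17 higher, Laptm5 (4.49) and Cd68 (1.92). That is 11.8%, against 15.1% of all genes called. Their summed linear level was 2879 to 3256 on iPS arrays and 856 to 988 on TSKM-3D arrays. The list median on single arrays was 5.66 to 5.8 and 5.36 to 5.59. Among members not called, Lyz2 differed by 0.87, and Ptprc, Adgre1 and Aif1 read 4.79, 4.85 and 4.89, under the array medians. The part of such cells was not tested.

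Germ cell genes rose in part. Of 26 germline and piRNA genes 13 were higher and 0 lower. Tdrd12, a piRNA pathway gene, read 4.68, 4.8 and 4.3 and then 9.44, 9.23 and 9.45, and Kit, the stem cell factor receptor, 5.8, 6.05 and 5.75 and then 9.65, 9.99 and 9.85. Tex19.1 rose by 2.92, the RNA-binding genes Dazl and Ddx4 by 2.39 and 1.68, Rnf17 by 2.4 and the cohesin gene Stag3 by 1.96. Several of these stayed dim in the iPS line, with Sycp3 at 5.51 and Mael at 5.79. Tdrd1 and Piwil4 were not called (-0.06 and 0.12). Of 7 genes linked to the 2-cell stage 2 were higher, Usp17lb (1.28) and Tcstv3 (1.08, not with array medians set equal), both of multicopy families in which a row can read several copies.

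Of 25 imprinted genes 8 were higher, 4 lower and 13 not called, in both parental classes. Among maternally expressed genes Phlda2 rose by 2.54 and Meg3 from 7.83, 8.48 and 8.42 to 10.41, 10.32 and 10.28, while Igf2r and Grb10 fell by 1.85 and 1.56. Meg3 RNA was thus read in the iPS line at about its fibroblast mean (10.33 against 9.96). The part of remaining feeder cells in the Meg3 reading was not tested. Rian, the neighbour of Meg3, was not called (0.77 ± 0.19). The paternally expressed gene Dlk1 of the same region stood at 7.5 and 7.58, against 10.53 in fibroblasts. Among other paternally expressed genes Mest, Igf2 and Dio3 rose by 2.31, 2.05 and 1.84, and Sgce and Nap1l5 fell by 2.0 and 2.2. Array rows do not tell the parental alleles apart. Of 37 Hox genes 0 rose and 5 fell, Hoxd13 by 2.5, Hoxd8 by 2.02, Hoxa11 by 1.76, Hoxc6 by 1.49 and Hoxd10 by 1.21, and 7 fell with array medians set equal. The 13.5% called stand beside 15.1% over all genes, of which 8.57% were lower. Nothing particular to Hox genes is read from this count. Their median level was 6.49 at TSKM-3D and 5.93 in the iPS line, so part of the members were dim.

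LIN28 proteins bind let-7 precursors and block their maturation. Of 17 genes of this axis 4 rose and 0 fell. Lin28a read 6.49, 6.71 and 6.42 and then 10.64, 10.71 and 10.5, Trim71, itself a let-7 target, rose by 2.95, Igf2bp1 by 2.7 and Lin28b by 1.17. No row of a let-7 gene was called, the values running from -0.2 (Mirlet7i) to 0.38 (Mirlet7g), and Hmga2, a let-7 target, differed by -0.24 ± 0.09. Among telomere genes 3 of 11 rose, Terf1, which coats telomeric repeats, by 2.52, Rtel1 by 1.35 and Wrap53 by 1.11 (not with array medians set equal), while Tert was not called (0.67 ± 0.1). Splicing regulators linked to cell identity had 1 of 15 higher, the epithelial regulator Esrp1 (1.31), and 5 lower. Mbnl1 and Mbnl2, which repress embryonic stem cell splice forms, fell by 2.1 ± 0.11 and 1.39 ± 0.07, Mbnl3 and Khdrbs3 fell by 1.2 and 1.36, and Celf2 differed by -3.82 on the row used and -0.40 on its other row.

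Rows of microRNA genes were few among the calls, 2 higher and 7 lower of 296 (3.04%, against 15.1% over all genes). Their median level was 4.74 at TSKM-3D and 4.73 in the iPS line, under the array medians. A change in such dim rows may not be seen. A row can read a precursor or a host transcript, and the mature RNA was not measured apart. The lower ones included Mir145a (from 7.19, 6.94 and 7.36 to 4.97, 4.7 and 4.8), Mir27a (from 8.19, 8.61 and 8.8 to 6.67, 7.09 and 6.82), Mir23a (-1.48 ± 0.16), Mir31 (-1.3 ± 0.15) and Mir143, which lost its call without the second TSKM-3D array. Those of the higher group were Mir677 (1.4) and Mir3068 (1.22). Mir23a and Mir27a are neighbours in 1 cluster, so their rows are not independent. Mature sequences from RefSeq for GRCm38.p6, found for 270 of the 296 genes, are shown for rows that fell, with the seed (bases 2 to 8) in capitals, since the seed sets which targets such a microRNA can pair with.
miR-23a-3p (chr8:84208563-84208583, + strand): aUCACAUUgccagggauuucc
miR-27a-3p (chr8:84208727-84208747, + strand): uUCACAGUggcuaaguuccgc
miR-31-5p (chr4:88910614-88910635, - strand): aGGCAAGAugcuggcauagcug
The 3 seeds differ from each other. Rows of the Mir302 cluster, which is active in pluripotent cells, were dim in both groups (Mir302b at 3.12 and 3.92) and were not called. In the cluster of Mir17 to Mir20a, 0 of 10 rows of the family were called.

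Small nucleolar RNA genes, a group added after the data were seen, formed a broad block of rises. These RNAs guide chemical modification of ribosomal RNA and mostly lie in introns of host genes. Of 51 measured, 39 were higher, 0 lower and 12 not called (38 higher after quantile normalization and 33 with array medians set equal). All 3 iPS arrays lay above all 3 TSKM-3D arrays in 48. Over all genes 6.48% were higher, and 24.2% had all iPS arrays above. Whether such a row reads the host transcript was not tested. The median of the group was 7.03, 7.11 and 7.29 on the TSKM-3D arrays, 8.72, 8.64 and 8.69 on the iPS arrays and 7.72, 7.65 and 7.44 on the fibroblast arrays. Snord52 read 6.65, 6.38 and 6.69 and then 9.52, 9.49 and 9.33, a difference of 2.87 ± 0.1, and Snord49a rose by 2.36 ± 0.13. Snora73a and Snora73b, of near-identical sequence, rose by 2.08 and 2.29 and cannot be told apart with certainty. Snora21 regained part of its fibroblast level, at 11.13 in fibroblasts, 6.37 at TSKM-3D and 8.64 in the iPS line. Ribosome biogenesis protein genes, as given above, had 0 of 24 called, but all iPS arrays lay above all TSKM-3D arrays in 17 of them.

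Genes named Zfp with a number, also grouped after the data were seen, had 41 of 317 higher, beside the background of 6.48% of genes, and 15 lower, beside 8.57% (38 and 20 with array medians set equal). Their median difference was 0.1, and -0.02 with array medians set equal. Of these genes, 6 are neighbours among the measured genes of chromosome 4 in the GRCm38.p6 gene order, and all 6 were higher. In that order the differences were 5.58 for Zfp980, 4.92 for Zfp600, 2.46 for Zfp991, 3.16 for Zfp982, 2.18 for Zfp985 and 3.94 for Zfp979. Zfp980 read 4.29, 3.98 and 3.93 and then 9.45, 9.65 and 9.83, Zfp600 3.22, 3.7 and 3.58 and then 8.19, 8.31 and 8.75, and Zfp979 6.33, 5.16 and 6.32 and then 9.74, 9.92 and 9.97. No TSKM-3D array reached any iPS array in these genes. The measured genes on either side, Tnfrsf8 and Rps19-ps3, differed by 0.65 and 0.40 and were not called, while Tnfrsf1b, next to Tnfrsf8, was called higher at 1.62 and Zfp933, next to Rps19-ps3, was not called. Members of such a cluster are near-identical in parts, so a row may read more than 1 of them and the 6 rows are not independent. Elsewhere Zfp640 rose by 5.11, Zfp459 by 3.98 and Zfp229 by 3.39, and Zfp521, a mesenchymal regulator, fell by 3.23.

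**Figure D5:**
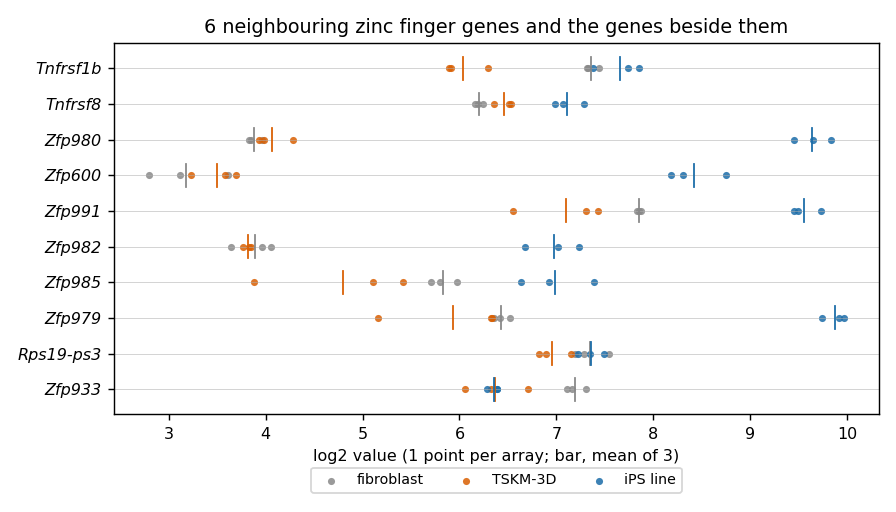
Log2 value on each array (points) and mean of 3 arrays (bars) in fibroblasts (grey), TSKM-3D (orange) and the iPS line (blue) for 6 zinc finger genes that are neighbours in the gene order, with the 2 measured genes on each side at the top and bottom. The 6 genes rise by 2.18 to 5.58 in the iPS line, and of the genes beside them Tnfrsf1b rises by 1.62 and Tnfrsf8, Rps19-ps3 and Zfp933 differ by 0.65 or less.

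Of the markers of other lineages, 27.3% were called in each of the trophoblast, epiblast and neural lists. The share was 20% for primitive endoderm and 8.33% for each of endothelium and muscle. Over all genes 15.1% were called (6.48% higher and 8.57% lower). The lists are short, at 11 to 15 genes, and no lineage is read from these counts. Primitive endoderm markers had 0 of 15 higher and 3 lower (Pdgfra, -2.84, Col4a1, -1.81, and Dab2, -1.22 but 0.03 on its other row), with Gata4, Gata6 and Sox17 at differences of 0.16, 0.07 and 0.27. Trophoblast markers had 3 of 11 higher, Krt8, Tfap2c (2.07) and Eomes (1.9), with Cdx2 at 6.55 and Gata3 at 6.3 in the iPS line and not called. Markers of the epiblast and early mesoderm had 3 of 11 higher, Dnmt3b, Eomes and Zic2 (1.89). Fgf5 differed by -0.99 and was called lower after either other scaling and without the first or second TSKM-3D array or the second iPS array. Neural markers had 2 of 11 higher (Olig2, 1.47, and Tubb3, 1.15) and 1 lower (Nes, -1.57), endothelial markers 1 of 12 higher (Pecam1, which pluripotent cells also express) and muscle markers 1 of 12 (Des, 1.98).

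At the 2-fold line the last genes counted were Ndufb8 (1.0004), Mypn (1.0010), Inpp5a (-1.0007), Serinc1 (-1.0009) and Ccdc186 (-1.0010), and among the nearest left out were Spats1 and Olfr985 (0.9997 each), Mapk12 (-0.9989) and Acot7 (-0.9999). Genes on both sides of the line hence had nearly the same size of change.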

How the data were processed

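Total RNA was extracted with Trizol and labelled with biotin by the WT Terminal Labeling Kit, per the labels' protocols, and hybridised to Affymetrix mouse arrays, 3 per group. The log2 values were used as the authors deposited them; how the authors normalized them is not given in the sources used here. Of 34760 rows, 21640 carried 1 gene symbol, 1321 several and 11799 none in the platform table; 21553 of the named rows were matched to the GRCm38.p6 gene table. Rows with several symbols or none were left out, and the row with the highest mean was used for each of 19937 genes.

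A linear model over the 3 groups (9 arrays) was fitted with limma 3.58.1 in R 4.3.3, without weights or covariates, and p-values were adjusted over all genes by Benjamini-Hochberg. A gene was called at adjusted p below 0.05 and at least 2-fold. The number of arrays limits the precision. The script was tested on simulated data. Genes in the text are the 15 largest called rises and falls with arrays that do not overlap, leaving out provisional names, and members of gene lists; the members and lists were chosen with earlier results of these data known. Small nucleolar RNA, zinc finger and microRNA rows were grouped by symbol after the values were seen. Alternatives were other scalings, row choices, filters, models and leaving out each array. Motifs were searched as exact letters on both strands.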

Additional observations from a re-analysis of the deposited data

How the results depend on the processing

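Of up to 1165 genes followed singly, list members and most of the largest changes, no called gene changed direction under any alternative run. Genes only in the added microRNA and zinc finger groups were not followed. Nor were genes named outside the lists and the largest changes. Against 1292 higher and 1709 lower genes, a test against a 2-fold threshold (limma treat) called 803 higher and 1128 lower. Over all 34760 array rows, an alternative chosen after seeing the data, 2430 rows were higher and 2144 lower. Leaving out single arrays gave 1290 to 1323 higher and 1625 to 1802 lower. Quantile normalization gave 1289 and 1808, equal medians 1100 and 2002, a filter on dim genes 1238 and 1674, the mean of a gene's rows 1281 and 1687, and the most variable row 1329 and 1725. The fit on 6 arrays, the trended robust fit and the replicate block each gave 1292 and 1709. So did the fit without the third fibroblast array, whose labels conflict on its cell type. These fits leave each gene's difference between the iPS line and TSKM-3D unchanged and alter only its p-value. Because the fold requirement alone set the main counts, equal counts were nearly bound to follow. They therefore do not test the calls or the effect of the conflicting label. Replicate numbers do not show pairing, since correlations of same-numbered arrays' deviations were -0.023, -0.098 and 0.045. Signal over background was not available and limits what can be said of dim genes.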

Other observations

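Chaperone, stress and lysosome genes, which were not described above, were called in 11.1%, 12.5% and 11.8% of members. The share over all genes was 15.1%, and nothing particular to these lists is read from the counts. Of 18 heat shock and chaperone genes 1 was higher, Hspb1, a small heat shock protein gene (2.28 ± 0.1), and 1 lower, its co-chaperone gene Bag3 (-1.59 ± 0.09). Hspb1 read 9.6, 9.66 and 10.01 at TSKM-3D and 12.06, 12.03 and 12.01 in the iPS line, and the groups did not overlap. Hsp90aa1 and Hspd1 were not called (0.3 and -0.22) but differed by 1.3 and -1.05 on a row not used. Of 16 genes of the ATF4 and unfolded protein response 0 were higher and 2 lower, Creb3l1 (-1.07) and Herpud1 (-1.01, not without the third iPS array or after quantile normalization). Quantile normalization added Trib3 as higher (1.03), and setting array medians equal added Dnajb9 as lower (-1.03). Of 17 lysosome genes 0 were higher and 2 lower, the cathepsin genes Ctsk (-1.54 ± 0.09) and Ctso (-1.47 ± 0.08).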
